A study of Bos taurus with 11 samples.

Results

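Heat-shock proteins are molecular chaperones, proteins that hold, refold or pass on other proteins that have not reached or have lost their shape. The group described here holds 10 genes: HSPA1A, HSPA8 and HSPH1 of the HSP70 and HSP110 family, the J-domain partner DNAJB1, HSP90AA1, the small heat-shock proteins HSPB1 and HSPB8, the cochaperone BAG3, and the mitochondrial chaperonin pair HSPD1 and HSPE1. They were picked by gene name in the array annotation, which gave 35 of 43653 non-control probes and 10 of 15015 named genes. The genes were proposed with differences between these same cows in view, so their differences are a description, and the p-values printed with them say only where a probe stood in the fit across all probes. The name cytosolic, under which the genes were gathered, does not cover HSPD1 and HSPE1, which work inside mitochondria, and BAG3 is a partner of chaperones rather than one itself.

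The tissue was endometrium, the lining of the uterus, taken by biopsy on day 7 of the oestrous cycle. The subfertile group held 5 cows that had not conceived in 3 consecutive embryo transfers or inseminations, with no abnormality detected in the genital tract and with cycles that seemed normal. The fertile group held 6 cows that had become pregnant within 3 attempts before the biopsy and again at the first transfer after it. Each cow gave 1 array with 1 colour, and the labels used here give no breed, age or treatment for either group. A level below is the log2 of the processed spot signal minus the 75th percentile of its array, so that 0 stands for the signal at that percentile. Differences are subfertile minus fertile on this log2 scale, with their standard error, over 5 subfertile and 6 fertile cows. Signals of different probes depend on the probe, so no level of one probe is set against another's.

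Cells keep HSPA8 and much of HSP90 at high levels at all times, whereas HSPA1A is the textbook inducible HSP70, switched on by the transcription factor HSF1 when proteins misfold. J-domain proteins such as DNAJB1 bring clients to HSP70 and start its ATPase, HSPH1 exchanges its nucleotide, and BAG3 does the same while linking HSP70 to small heat-shock proteins. In tissues that answer ovarian steroids, such as endometrium, HSP90 and HSP70 are also parts of the complexes that hold steroid receptors ready for their ligand.

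As far as slide and scan day are known, the groups shared neither. All 5 subfertile arrays were scanned on 1 day, from 3 slides, and 5 of the fertile arrays on 3 other days, from 3 different slides, while these facts are missing for fertile cow 6. The fits below that block on slide or on day give fertile cow 6 a slide and a day of its own, an assumption that every p from them rests on. Group and scan day therefore cannot be told apart for these arrays. The median processed signal of an array lay between 54.3 and 92.7 in subfertile cows and between 161 and 452 in fertile cows. The share of probes well above background lay between 64.4% and 74.1% in subfertile cows and between 72.0% and 77.4% in fertile cows. The number of arrays limits the precision of every value. All 35 heat-shock probes were well above background on all 11 arrays, and no fit dropped an array for any of them. The median difference of all 31877 probes tested was 0.07, and it changed with the base composition of the probe: it was -0.12 for probes with 21 G or C bases of 60, 0.11 for those with 27 and 0.32 for those with 33.

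HSPA1A was higher in subfertile cows at all 5 of its probes, by 0.64 to 1.64. The 5 probes target different places of the HSPA1A transcript and are shown first because the results turn on them. Their positions are those of the array's annotation on build HGSC Btau_3.1, on the minus strand of chromosome 23. The sequence of the most 3′ probe (A_73_P359866, chr23:27311294-27311353) is not shown. Capitals mark the 29 bases that the probes beginning at bases 870 and 876 of the transcript have in common, so these probes read nearly the same stretch.
HSPA1A A_73_P474283, base 439, chr23:27313147-27313206: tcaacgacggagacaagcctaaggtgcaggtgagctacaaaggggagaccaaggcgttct
HSPA1A A_73_P275126, base 870, chr23:27312716-27312775: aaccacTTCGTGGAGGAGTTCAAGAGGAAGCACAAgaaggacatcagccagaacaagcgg
HSPA1A A_73_P268106, base 876: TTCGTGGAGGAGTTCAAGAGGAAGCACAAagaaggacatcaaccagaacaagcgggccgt
HSPA1A A_73_104629, base 1615, chr23:27311987-27312046: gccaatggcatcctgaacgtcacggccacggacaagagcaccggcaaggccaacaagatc

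The longest run of bases that any of these 4 probes shared with a probe named for a gene outside the group was 15. The annotation places only 30 bases of the probe at base 876 in the genome, and its position is left out for that reason. All 5 HSPA1A probes carry the accessions of both near-identical bovine HSP70 records, and the gene table used for names lists HSPA1B as an older name of HSPA1A. Transcripts of one copy cannot be told from those of the other, and the values stand for both. The annotation lists the probe at base 1615 under a different one of these records from the rest, so its base may not be counted alike. The files do not say whether a probe lies in coding sequence or in a UTR.

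At base 876, HSPA1A read -1.58, -1.29, -1.19, -1.69 and -1.30 in subfertile cows 1 to 5, and its lowest, median and highest levels in fertile cows were -4.10, -2.84 and -2.66. The ranges of the groups did not touch. The difference was 1.64 ± 0.24, or 3.13-fold (limma, adjusted p = 0.00142). The overlapping probe at base 870 gave -0.95, -0.69, -0.56, -1.03 and -0.64 in subfertile cows, against a lowest, median and highest level of -3.38, -1.98 and -1.84 in fertile cows. Its difference was 1.47 ± 0.26, or 2.76-fold (limma, adjusted p = 0.0034).

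Elsewhere on the HSPA1A transcript the groups were apart as well. The probe at base 439 read -1.85, -1.81, -1.64, -1.98 and -1.65 in subfertile cows and -3.76, -2.77 and -2.60 as lowest, median and highest in fertile cows, a difference of 1.17 ± 0.19 (limma, adjusted p = 0.00243). The probe at base 1615 read 1.65, 1.91, 1.91, 1.27 and 1.90 in subfertile cows and -0.30, 0.65 and 1.04 in fertile cows, a difference of 1.18 ± 0.22 (limma, adjusted p = 0.00485). In both of these probes the subfertile and fertile cows did not overlap. The most 3′ probe, at base 2292, read 4.30, 4.08, 4.25, 3.72 and 4.46 in subfertile cows and 2.89, 3.64 and 3.79 in fertile cows, a difference of 0.64 ± 0.18 (limma, adjusted p = 0.0292). There subfertile cow 4, the lowest of its group at every HSPA1A probe, fell among the fertile cows.

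**Figure D1:**
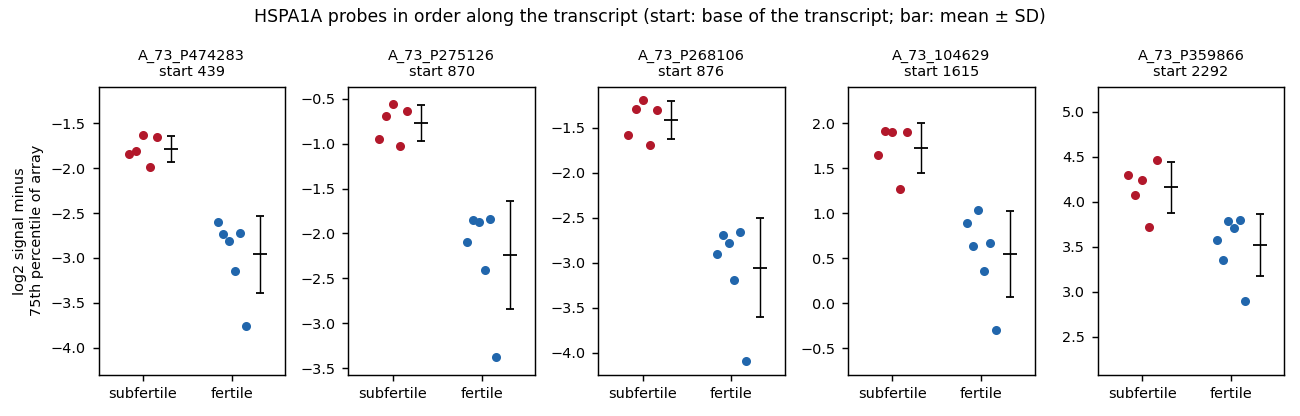
Levels of the 5 HSPA1A probes (log2 signal minus the 75th percentile of the array) in 5 subfertile and 6 fertile cows, in order of the base of the transcript at which each probe begins. Points are cows, bars are mean ± SD; at bases 439, 870, 876 and 1615 the groups do not overlap, and the lowest fertile point at every probe is cow 6.

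Fertile cow 6 was the lowest of all 11 cows at each of the 5 HSPA1A probes, and it is also the array whose deposited file lacks a header. Leaving it out did not end any HSPA1A call, and over all cows left out in turn the difference at base 876 stayed between 1.44 and 1.72. The difference at base 2292 lost its call when any 1 of 6 cows was left out, with adjusted p up to 0.0717, and kept it without fertile cow 3, 4, 5 or 6 or subfertile cow 4. Fitting the slide as a random block, the probes at bases 439, 870, 876 and 1615 passed, with adjusted p from 0.00433 to 0.0129, and the probe at base 2292 had an adjusted p of 0.0669. Fitting the scan day in the same way, the probes at bases 439, 870 and 876 passed, with adjusted p from 0.0232 to 0.0389, whereas base 1615 had 0.0539 and base 2292 had 0.195. The 4 probes whose groups did not overlap hold 31 to 36 G or C bases, the probe at base 2292 holds 21. Across all tested probes the median difference was 0.28 at 31 G or C bases, 0.32 at 33 and 0.40 at 36, against which the HSPA1A values stood at 1.17 to 1.64. With the trends of GC content and brightness taken out of each array, the differences of these 4 probes were 0.77 to 1.41 and all 4 passed (limma, adjusted p from 0.00323 to 0.0323), and that at base 2292 was 0.60 (adjusted p = 0.0562).

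HSPA8, the constitutive HSP70 that is present in nearly every cell, showed little difference at its 3′ end and more towards its 5′ end. The probe at base 2168, its brightest, read 5.07, 5.22, 4.85, 5.10 and 5.03 in subfertile cows and 4.79, 5.02 and 5.18 as lowest, median and highest in fertile cows. The groups lay on top of each other, with a difference of 0.04 ± 0.10 and a 95% interval of -0.18 to 0.26 (limma, adjusted p = 0.803). The sign of this value turned under quantile normalization, at -0.28, and under median centring, at -0.05. Of the 6 HSPA8 probes, 1 passed, at base 407, whose sequence follows.
HSPA8 A_73_P448151, base 407, chr15:32351101-32351160, minus strand: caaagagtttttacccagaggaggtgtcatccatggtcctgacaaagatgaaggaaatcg

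At this probe HSPA8 read 1.24, 1.40, 1.08, 1.47 and 0.96 in subfertile cows and 0.18, 0.76 and 1.04 in fertile cows. The groups overlapped, with a difference of 0.53 ± 0.17 (limma, adjusted p = 0.0432), and the call was lost with slide (adjusted p = 0.0689) or scan day (adjusted p = 0.204) as a random block. It was also lost without any 1 of 8 cows, with adjusted p up to 0.101, and kept without fertile cow 1 or 2 or subfertile cow 5. Base 542 gave 0.44 ± 0.17 (adjusted p = 0.0897) and base 1281 gave 0.30 ± 0.13 (adjusted p = 0.126). The probes at bases 1700 and 1823 gave 0.14 and -0.04, neither of which passed.

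HSPH1, the HSP110 that swaps nucleotides on HSP70, has 1 probe. It read 3.39, 3.56, 2.85, 2.95 and 3.11 in subfertile cows and 2.50, 3.06 and 3.29 as lowest, median and highest in fertile cows. The groups overlapped widely, and the difference of 0.18 ± 0.17 did not pass (limma, adjusted p = 0.473, 95% interval -0.19 to 0.56). DNAJB1, the J-domain partner that is induced with HSPA1A in many cells, did not pass at either probe. Its brightest probe read 1.75, 1.95, 1.41, 1.44 and 1.78 in subfertile cows and 1.45, 1.75 and 2.09 in fertile cows, a difference of -0.11 ± 0.15 with a 95% interval of -0.44 to 0.23 (limma, adjusted p = 0.651). The other DNAJB1 probe, at base 768, gave 0.17 ± 0.13. The smallest HSPA1A difference, 0.64 at base 2292, had a 95% interval of 0.24 to 1.05. That interval began just above the one of the brightest DNAJB1 probe. It overlapped the one at base 768, which was -0.11 to 0.46. The difference between the genes was not tested.

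**Figure D2:**
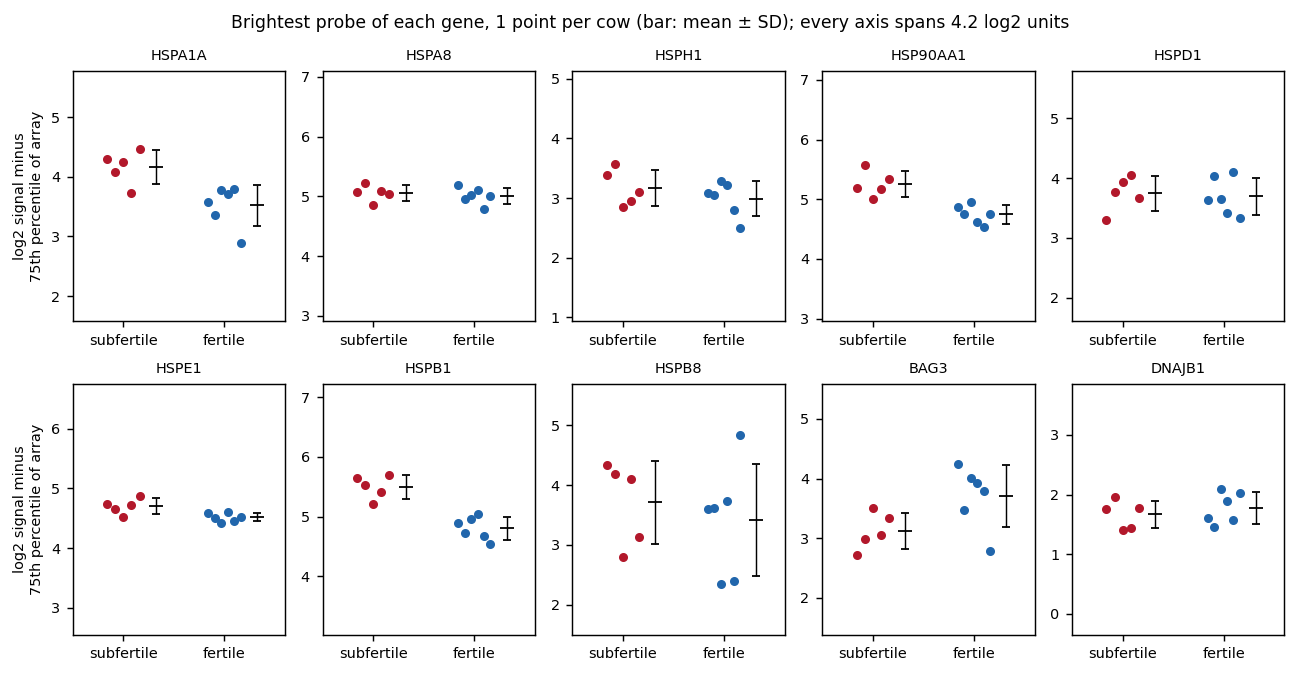
Level of the brightest probe of each of the 10 genes (log2 signal minus the 75th percentile of the array) in 5 subfertile and 6 fertile cows, 1 point per cow with mean ± SD beside it. HSPB1 and HSP90AA1 are the genes whose groups do not overlap here, and HSPB8 shows the widest spread within both groups.

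HSP90AA1, the stress-responsive form of cytosolic HSP90, passed at 2 of 6 probes. The brightest, at base 2725, read 5.19, 5.58, 5.00, 5.18 and 5.33 in subfertile cows and 4.53, 4.76 and 4.95 as lowest, median and highest in fertile cows. All subfertile cows lay above all fertile cows, with a difference of 0.51 ± 0.12, or 1.42-fold (limma, adjusted p = 0.0138). The probe at base 1847 gave the same size, 0.51 ± 0.13 (adjusted p = 0.0188), again without overlap. The annotation spreads its 60 bases over 348 bases of chromosome 21.
HSP90AA1 A_73_P225557, base 1847, chr21:67026006-67026353, minus strand: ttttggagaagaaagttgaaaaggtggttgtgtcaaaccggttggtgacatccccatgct

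The other 4 HSP90AA1 probes did not pass and lay between -0.33 and 0.29, so that the mean over all 6 probes was 0.22 (limma, adjusted p = 0.306). The probe at base 1665 differed by -1.32 between fertile cows of different slides (cows 2 and 5 minus cows 1 and 3), more than any HSP90AA1 difference between the groups. With trends of GC content and brightness removed, the value at base 2725 was 0.07 (adjusted p = 0.753), and under quantile normalization it was 0.21 (adjusted p = 0.308). With slide as a random block the calls at bases 2725 and 1847 had adjusted p of 0.0537 and 0.0581.

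HSPB1, or HSP27, a small heat-shock protein that binds unfolding proteins and actin filaments, was higher at both of its probes. At base 752 it read 5.65, 5.52, 5.21, 5.42 and 5.70 in subfertile cows and 4.54, 4.81 and 5.05 as lowest, median and highest in fertile cows. The groups did not overlap, and the difference was 0.70 ± 0.13, or 1.62-fold (limma, adjusted p = 0.00396). Leaving out any 1 cow kept it between 0.64 and 0.77, and with slide as a random block the adjusted p was 0.0174, against 0.0636 with scan day. It was 0.37 under quantile normalization (adjusted p = 0.0628) and 0.24 with the trends of GC content and brightness removed (adjusted p = 0.232). The second probe, made from an EST (a single-pass cDNA read) that the annotation does not place in the genome, read between -4.13 and -3.94 in subfertile cows and between -5.30 and -4.15 in fertile cows. It differed by 0.71 ± 0.21 (limma, adjusted p = 0.0298), but the HSPB1 probes did not move together from cow to cow (r = -0.27 of deviations from the group means, 11 arrays). At this second probe fertile cows 2 and 5, which share a slide, stood at -4.15 and -4.17, 0.98 above the mean of fertile cows 1 and 3. Its call was lost without any 1 of the 9 other cows, with adjusted p up to 0.0592, and kept without fertile cow 2 or 5.

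HSPB8, a small heat-shock protein that works in a complex with BAG3, varied more between cows than between groups. Its brightest probe read 4.34, 4.19, 2.80, 4.10 and 3.13 in subfertile cows and 2.35, 3.61 and 4.84 as lowest, median and highest in fertile cows. The SD was 0.70 among subfertile and 0.94 among fertile cows, against a difference of 0.29 ± 0.45 (limma, adjusted p = 0.677). The other HSPB8 probes gave 0.81 ± 0.49 and 0.07 ± 0.49, neither of which passed. The 3 probes followed each other closely over the cows, with r from 0.98 to 0.99 of deviations from the group means. Subfertile cows 3 and 5, on 1 slide, read 1.18 to 1.35 lower in HSPB8 than subfertile cows 2 and 4 on another, at each of the 3 probes. Fertile cows 3 and 5, on different slides, were as low, and fertile cow 6 was the highest of its group.

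BAG3, the cochaperone that joins HSP70 to HSPB8 and hands clients to autophagy, gave opposite signs at its probes. The sequences of the probes at bases 1217 and 1678 are shown because they disagree, and the third, at base 2383, is not shown.
BAG3 A_73_P258541, base 1217, chr26:40302228-40302287, plus strand: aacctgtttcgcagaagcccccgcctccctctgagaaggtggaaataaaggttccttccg
BAG3 A_73_P257756, base 1678, chr26:40302689-40302748, plus strand: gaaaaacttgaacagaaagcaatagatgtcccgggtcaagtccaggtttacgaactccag

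At base 1217 BAG3 read 3.99, 3.27, 3.95, 3.26 and 3.43 in subfertile cows, against 0.66, 3.12, 0.54, 1.40, 3.09 and 1.36 in fertile cows 1 to 6. The groups did not overlap, by a narrow gap, and the difference was 1.88 ± 0.48 (limma, adjusted p = 0.0175). Fertile cows 2 and 5, the pair on the second slide, stood 2.50 above fertile cows 1 and 3 on the first. At base 2383, the brightest BAG3 probe, subfertile cows read 2.72, 2.99, 3.50, 3.06 and 3.34, and fertile cows had 2.79, 3.86 and 4.24 as lowest, median and highest. That difference was -0.58 ± 0.24 and did not pass (limma, adjusted p = 0.105). It passed as lower without fertile cow 6, at -0.77 (adjusted p = 0.0137), and with normexp background correction, at -0.70 (adjusted p = 0.0279). Base 1678 gave -0.32 ± 0.25 (adjusted p = 0.383). The probes at bases 1678 and 2383 moved together over the cows (r = 0.98 of deviations from the group means), whereas the probe at base 1217 followed neither of them, with r of -0.13 and -0.25. The mean over the 3 probes was 0.33 (limma, adjusted p = 0.294).

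**Figure D3:**
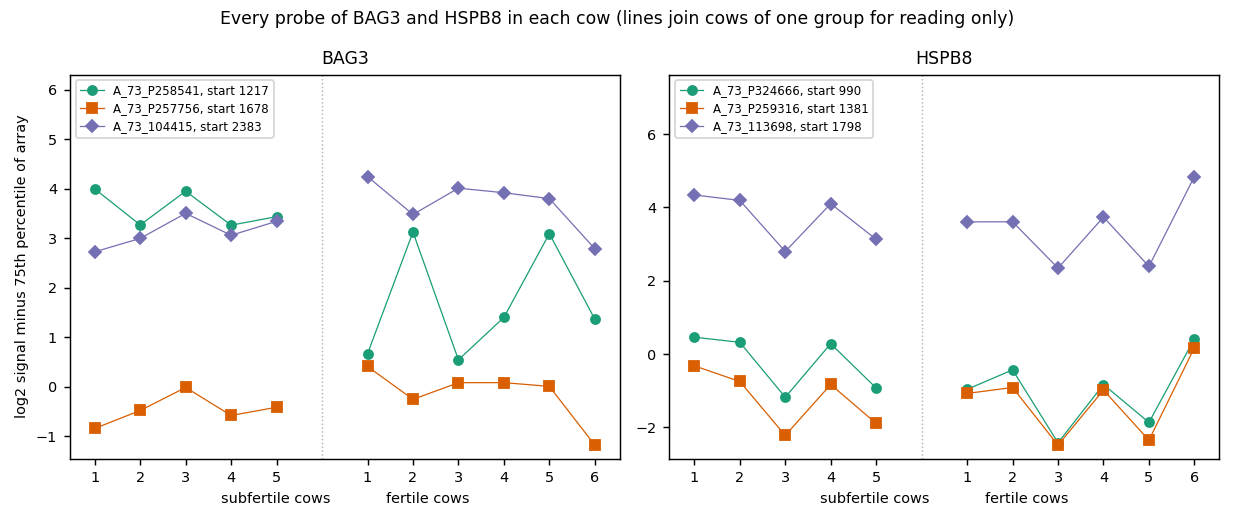
Levels of the 3 BAG3 probes and the 3 HSPB8 probes (log2 signal minus the 75th percentile of the array) in each of 5 subfertile and 6 fertile cows. The HSPB8 probes run in parallel; of the BAG3 probes, those at bases 1678 and 2383 run in parallel and the one at base 1217 is high in all subfertile cows and in fertile cows 2 and 5.

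HSPD1 and HSPE1, also called HSP60 and HSP10, form the barrel and lid that fold proteins in the mitochondrial matrix. Neither gene had a probe that passed. The brightest HSPD1 probe read 3.30, 3.76, 3.94, 4.06 and 3.67 in subfertile cows and 3.33, 3.64 and 4.10 as lowest, median and highest in fertile cows, a difference of 0.05 ± 0.18 (limma, adjusted p = 0.851, 95% interval -0.33 to 0.44). Along HSPD1 the differences ran from 0.05 and 0.16 at bases 2349 and 2075 through -0.24 at base 1337 to -0.46 at bases 973 and 794. The annotation places only 39 bases of the probe at base 973 in the genome, beside the probe at base 2349. The place of that probe along HSPD1 is therefore uncertain. At base 794 HSPD1 read between -1.77 and -1.34 in subfertile cows and between -1.51 and -0.69 in fertile cows (limma, adjusted p = 0.0639). HSPE1 read 4.74, 4.66, 4.52, 4.72 and 4.88 in subfertile cows and 4.42, 4.52 and 4.61 in fertile cows, a difference of 0.19 ± 0.09 (limma, adjusted p = 0.162), with -0.11 ± 0.09 at its other probe. Under quantile normalization 1 probe of each passed as lower, HSPD1 at base 794 with -0.50 (adjusted p = 0.0449) and HSPE1 at base 262 with -0.28 (adjusted p = 0.0495). HSPD1 and HSPE1 lie on opposite strands of chromosome 2, on the minus and plus strand, in the array's annotation.

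Over the 35 probes, 11 passed and all 11 were higher in subfertile cows, from 5 of the 10 genes: 5 of HSPA1A, 2 each of HSPB1 and HSP90AA1, and 1 each of HSPA8 and BAG3. Of all probes tested, 22.2% passed, 14.8% as higher and 7.38% as lower. The heat-shock share was 31.4%, and without HSPA1A it was 20%, or 6 of 30 probes. The groups did not overlap at 9 heat-shock probes, against 13.5% of all tested probes in either direction and 9.65% as higher. The median difference over the 35 probes was 0.19, beside 0.07 over all probes. A fit without fertile cow 6 also gave 11 calls, 9 higher and 2 lower, but not all at the same probes. Since the genes were proposed with these differences in view and the probes of a gene share a transcript, nothing is read from the count. Of the 6 heat-shock probes with 30 or more G or C bases 5 passed, and of the 29 with fewer 6 passed. Those 5 were HSPA1A probes apart from that of BAG3. The share of all tested probes called higher rose with G or C bases as well. It was 5.0% at 21 and 15.2% at 27, and 24.2% at 31, 29.8% at 33 and 39.3% at 36.

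The count depended on how slides and composition were handled. With slide as a random block 7 of the 35 passed (4 of HSPA1A, 2 of HSPB1 and 1 of BAG3), where 11.5% of all probes did. That fit used 1 consensus correlation, 0.447, for every probe. At BAG3 base 1217 the gap between fertile slides was 2.50, beside a group difference of 1.88. At the second HSPB1 probe these values were 0.98 and 0.71. The fit may understate the slide effect at those probes. Blocking on the scan day left 3 calls, all of HSPA1A, where 3.06% of all probes did. With the trends of GC content and brightness removed 6 passed (4 of HSPA1A and 1 each of HSPB1 and BAG3), where 15.1% of all probes did. Under quantile normalization 8 passed, 6 as higher and 2 as lower, where 20% of all probes did.

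**Figure D4:**
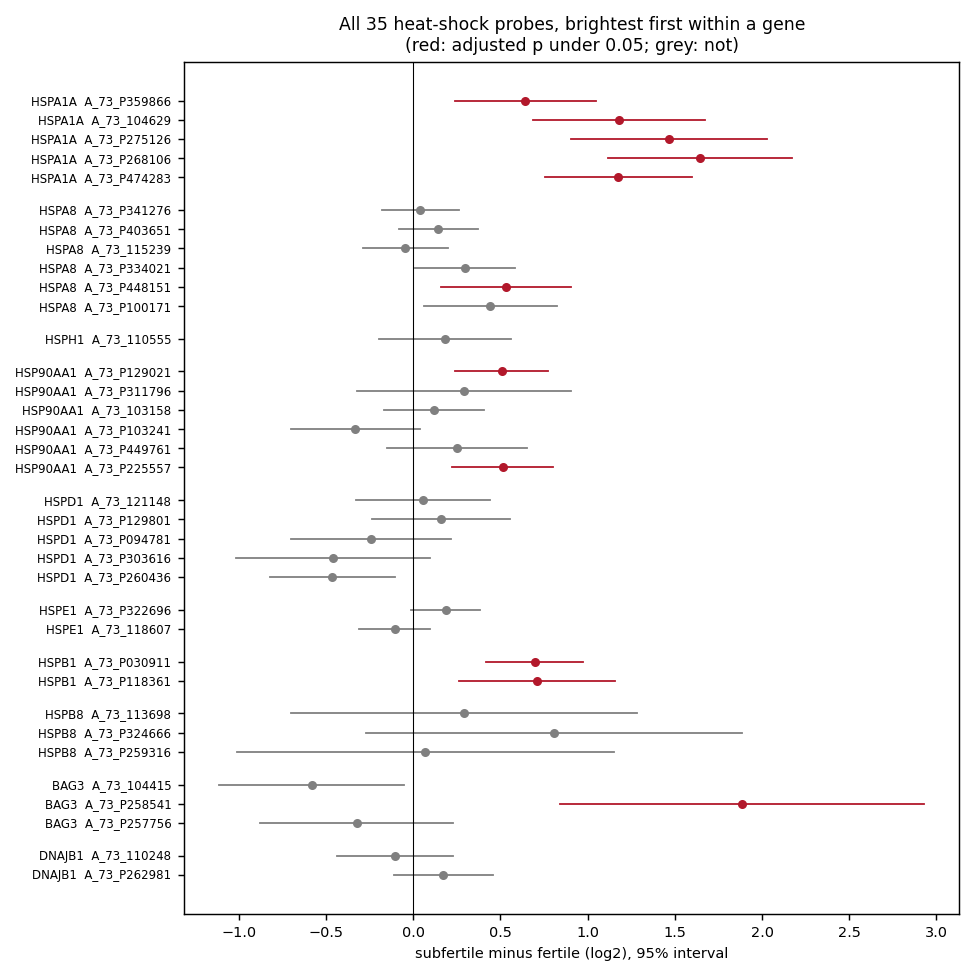
Difference between 5 subfertile and 6 fertile cows (subfertile minus fertile, log2) for all 35 heat-shock probes with 95% intervals, grouped by gene with the brightest probe on top; red marks adjusted p under 0.05 in the fit over all probes. The HSPA1A probes lie between 0.64 and 1.64, and the probes of BAG3 lie on both sides of 0.

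The 10 genes did not vary as one set from cow to cow. Over the 45 pairs of genes, taken with the brightest probe of each and as deviations from the group means over 11 arrays, r ran from -0.74 to 0.77 with a median of 0.20, and it was above 0 in 29 pairs. These are descriptions, and the points of a pair share their arrays and slides. HSPH1 and HSPB1 were most alike (r = 0.77, Spearman's rho 0.73), followed by HSPA8 and HSP90AA1 (r = 0.71, rho 0.54) and by HSPA1A and BAG3 (r = 0.70, rho 0.49). Without fertile cow 6 the last pair was at 0.33, whereas the first was at 0.68 and the second at 0.72. Without the 2 arrays farthest from the median of the first gene of each pair, the 3 values were 0.53, 0.39 and 0.39. HSPB8 ran against HSPA1A (r = -0.74, and -0.55 without fertile cow 6) and against BAG3 at its brightest probe (r = -0.73, and -0.52 without that cow). HSPD1 ran against DNAJB1 (r = -0.70, and -0.64 without that cow).

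The mean level of the 10 genes was 4.05, 4.15, 3.83, 3.97 and 4.04 in subfertile cows 1 to 5, and it lay between 3.69 and 3.93 in fertile cows. Subfertile cow 3 was the only one of its group inside the fertile range. Of 11887 other genes, the 5 whose deviations were most like those of this mean were CENPE (r = 0.88), ACBD7 (0.87), NARF (0.87), RSL1D1 (0.86) and HES5 (0.86) over 11 arrays. CENPE, a motor protein of the mitotic spindle, was lower in subfertile cows, at -1.80 ± 0.33 (limma, adjusted p = 0.00426), and the other 4 did not pass.

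HSF1, the transcription factor that switches on heat-shock genes, was higher in subfertile cows at 3 of 3 probes. Its brightest probe averaged 1.33 ± 0.10 in subfertile and 0.71 ± 0.23 in fertile cows (SD, n = 5 and n = 6), without overlap. The difference was 0.62 ± 0.12 (limma, adjusted p = 0.00532), with an adjusted p of 0.0137 in the fit with slides as blocks and 0.0606 in that with days. It was 0.62 with the trends of GC content and brightness removed and 0.61 under quantile normalization. HSF1 was the only one of 5 heat-shock factors and regulators tested that passed, and next in p came HSBP1, a small protein that binds HSF1, at -0.27 ± 0.13 (adjusted p = 0.17).

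Relatives and partners outside the 10 genes moved both ways. With 1 probe a gene, 22.1% of 18505 genes passed, 14.2% as higher and 7.88% as lower. Over 8 lists of chaperones and their partners, 20 of 87 tested genes were higher and 6 lower, with a median difference of 0.15 beside 0.06 for all genes. Of these 26 calls, 14 were kept in the fit that blocks on slides, 1 in that on days and 13 with the trends of GC content and brightness removed. The call kept with days as blocks was that of AHSA2. Among 12 relatives of HSP70, HYOU1, an HSP110 of the endoplasmic reticulum, was higher by 0.997 ± 0.20 (limma, adjusted p = 0.00673), and no other passed at its brightest probe. HSPA13 was next at 0.37 ± 0.14 (adjusted p = 0.0836). HSPA5, the main HSP70 of the endoplasmic reticulum, differed by -0.06 ± 0.13 at its brightest probe, while 1 of its 4 probes passed as higher and its probes ranged from -0.24 to 0.44. HSPA9, the mitochondrial one, differed by -0.18 ± 0.09 (adjusted p = 0.171).

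Of 16 relatives and cochaperones of HSP90, 4 were higher and 1 was lower. STIP1, which bridges HSP70 and HSP90, was higher by 0.53 ± 0.11 (limma, adjusted p = 0.00842) and at 5 of 6 probes. AHSA1, which speeds the HSP90 ATPase, was higher by 0.55 ± 0.12 (adjusted p = 0.00862), whereas its relative AHSA2 was lower, at -0.72 ± 0.11 (adjusted p = 0.00198), each at both of its probes. HSP90AB1, the constitutive HSP90, was higher by 0.72 ± 0.16 at its brightest probe (adjusted p = 0.00926), but at 1 of 6 probes only. That HSP90AB1 value was 0.02 with the trends of GC content and brightness removed and -0.09 under quantile normalization. The STIP1, AHSA1 and AHSA2 values kept their sign there, at 0.41, 0.37 and -0.75 under quantile normalization.

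Among 17 J-domain proteins 3 were higher and 2 lower. DNAJA1 was higher by 0.42 ± 0.10 (limma, adjusted p = 0.0148) and DNAJB6 by 0.49 ± 0.12 (adjusted p = 0.017). DNAJB14 was lower, at -0.51 ± 0.15 (adjusted p = 0.0294), and so was DNAJA2, at -0.34 ± 0.11 (adjusted p = 0.0426). Of 11 BAG proteins and other HSP70 partners 3 were higher and 1 lower. STUB1, the ubiquitin ligase known as CHIP that marks chaperone clients for degradation, was higher by 0.63 ± 0.11 (adjusted p = 0.00331) at 2 of 2 probes. ST13, which holds HSP70 on its client, was higher by 0.29 ± 0.09 (adjusted p = 0.0426) and BAG6 by 0.50 ± 0.17 (adjusted p = 0.0489). ST13 passed at 2 of its 5 probes, which ranged from -0.18 to 0.40, and BAG6 at 2 of 3. GRPEL2, a nucleotide exchanger of the mitochondrial HSP70, was lower, at -0.44 ± 0.10 (adjusted p = 0.0114). It passed at 1 of 2 probes, the other giving -0.09. Of 4 small heat-shock relatives only HSPB6 passed at its brightest probe, at 0.41 ± 0.13 (adjusted p = 0.0379), and HSPB2 was next at 0.26 ± 0.13 (adjusted p = 0.165). HSPB2 passed as higher at the other of its 2 probes, at 0.64. With trends removed DNAJA1 was at 0.12 (adjusted p = 0.485) and HSPB6 at 0.16 (adjusted p = 0.371), and the calls of DNAJB14, BAG6 and GRPEL2 ended too, at -0.37, 0.40 and -0.30. STUB1 kept its call there at 0.33 (adjusted p = 0.0435). With slides as blocks the calls of DNAJA1, STUB1 and GRPEL2 were kept, and those of DNAJB6, DNAJB14, DNAJA2, ST13, BAG6 and HSPB6 were not.

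The cytosolic chaperonin CCT and its partner prefoldin, which fold actin and tubulin, had 6 of 14 genes higher and none lower at the brightest probe. CCT3 was higher by 0.54 ± 0.09 (limma, adjusted p = 0.00354), PFDN5 by 0.85 ± 0.18 (adjusted p = 0.00715), CCT7 by 0.42 ± 0.10 (adjusted p = 0.0112) and TCP1 by 0.31 ± 0.08 (adjusted p = 0.0213). TCP1 passed as higher at 1 and as lower at another of its 4 probes. Among the genes not called at the brightest probe, PFDN2 passed as lower at 1 of 2 probes, at -0.40. VBP1 passed as higher at 1 of 2, at 1.13. PFDN5 and CCT7 each passed at 1 of 2 probes, the other probes giving 0.00064 and 0.21. With trends removed the calls of PFDN5, CCT7 and TCP1 ended, at 0.30 (adjusted p = 0.182), 0.16 (adjusted p = 0.24) and 0.14 (adjusted p = 0.26), and CCT3 kept its call at 0.37 (adjusted p = 0.0319). With slides as blocks CCT3, PFDN5 and CCT7 passed and TCP1 did not. The 8 genes of mitochondrial protein quality control had 1 higher and 2 lower. CLPX, which unfolds proteins for the matrix protease CLPP, was lower, at -0.64 ± 0.12 (adjusted p = 0.00531), and so was the inner-membrane protease YME1L1, at -0.26 ± 0.09 (adjusted p = 0.0476). SPG7, a subunit of another inner-membrane protease, was higher by 0.49 ± 0.13 (adjusted p = 0.0179). It passed at 1 of 3 probes, which ranged from -0.39 to 0.49. With trends removed CLPX passed, at -0.49 (adjusted p = 0.0167), and YME1L1 and SPG7 did not, at -0.17 and 0.17.

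**Figure D5:**
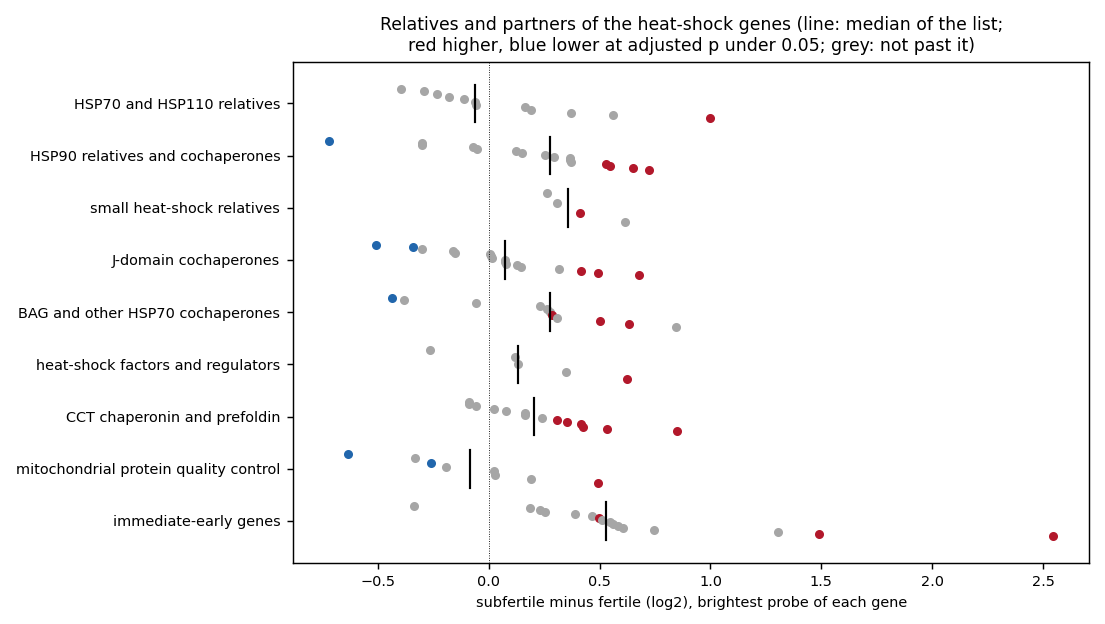
Difference between 5 subfertile and 6 fertile cows (subfertile minus fertile, log2) of the brightest probe of each tested gene in 9 lists, with the median of each list as a line. Red genes were higher and blue genes lower at adjusted p under 0.05; the 14 CCT and prefoldin genes have 6 red and no blue points.

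Immediate-early genes, which answer stress and tissue handling within minutes to hours, were followed because heat-shock genes can answer the same events. Of 16 tested, 3 were higher: FOSB by 2.54 ± 0.57 (limma, adjusted p = 0.00995), JUND by 1.49 ± 0.22 (adjusted p = 0.00145) and IER3 by 0.50 ± 0.14 (adjusted p = 0.0306). FOSB and IER3 each passed at 1 of 2 probes, the other probes giving 0.82 and 0.22. The mean level of the list was 0.95, 1.58, 2.12, 1.02 and 3.53 in subfertile cows 1 to 5 and lay between 0.76 and 1.98 in fertile cows. Subfertile cows 1, 2 and 4 lay inside the fertile range. Cows 1 and 4 were the lowest of their group in HSPA1A at bases 439, 870, 876 and 1615. At base 2292, the brightest HSPA1A probe, only subfertile cow 5, at 4.46, was above subfertile cow 1, at 4.30. Fertile cow 6, the highest fertile cow on this list, was the lowest in HSPA1A. The part of these genes in the HSPA1A difference was not tested.

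Of the lists of cell type markers, only that of epithelium had list means that separated the groups. Over all genes with 1 probe each, 14.2% passed as higher and 7.88% as lower. Of 8 epithelial markers 6 were higher in subfertile cows, led by CLDN3 at 1.08 ± 0.18 (limma, adjusted p = 0.00241), and the mean level of the list was 2.68 to 3.04 in subfertile and 1.69 to 2.46 in fertile cows, without overlap. Of these 6 epithelial calls only that of CLDN3 was kept with slides as blocks or with trends removed, the CLDN3 value with trends removed being 0.67. Of 9 stromal markers 2 were higher and 1 lower, with list means of 2.84 to 3.34 in subfertile and 3.24 to 3.39 in fertile cows. Both of the higher ones, COL3A1 and DCN, stood at 0.53 and turned sign under quantile normalization, at -0.24 and -0.33. Smooth muscle had 2 of 7 higher, with list means of 2.60 to 4.93 in subfertile cows, the highest being cow 1, and 1.17 to 3.56 in fertile cows. Endothelium had 2 of 6 higher, with list means of -1.76 to -0.90 in subfertile and -1.81 to -1.41 in fertile cows. Leukocytes had 1 of 8 higher and 1 lower, with means of -1.68 to -1.17 in subfertile and -1.70 to -1.13 in fertile cows. Red cells had 1 of 3 higher, with list means of -4.83 to -1.85 in subfertile and -4.97 to -3.75 in fertile cows. Only 1 of these 3 was well above background on all 11 arrays. The called red cell marker was so on 4 subfertile and 3 fertile arrays, so its call lies near the floor. The 4 markers of uterine tissue, all well above background on all 11 arrays, had none past the threshold, with means of -1.26 to -0.68 in subfertile and -1.64 to -1.01 in fertile cows. No tested marker was below background on all arrays. In bulk tissue fewer cells of a type and less RNA per cell cannot be told apart, and the part of the epithelial shift in the heat-shock differences was not tested.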

How the data were processed

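Total RNA of 11 endometrial biopsies was labelled with Cy3 and hybridised to 1-colour Agilent bovine arrays, per the labels' protocols. Per the submitters' processing notes, spots were read with Agilent Feature Extraction 10.5.1.1. The scanner files as deposited hold the linear processed intensity of 45220 spots. A table of log2 values deposited by the authors served as an alternative. The file of fertile cow 6 has no header and its gene names are out of register, so names were joined by probe.

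Log2 processed signal minus the 75th percentile of each array was used, without control spots and spots flagged as outliers (1 to 156 an array), with spots of a probe averaged. No non-control spot was saturated. Probes well above background on at least 5 of 11 arrays (31877) were fitted with limma 3.58.1 in R 4.3.3 (lmFit, eBayes, group only) and adjusted by Benjamini-Hochberg over all of them, at 0.05. Of 43653 probes, 20595 were named for the lists by accession, 10745 by symbol and 376 by an older symbol from a RefSeq gene table (ARS-UCD2.0, names only), and 11937 kept the name in the files. The heat-shock probes were taken by the gene name in the files, and the printed sequences are probe sequences from the scanner files.

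The heat-shock genes and all lists were chosen with earlier results of these data known. Named were all 10 genes with every probe; in each other list up to 4 genes past the threshold with the smallest p, or the 2 with the smallest p where fewer passed; HSF1, HSP90AB1, HSPA5 and HSPA9; and the 5 genes most like the mean of the 10. Each list gene was represented by its brightest tested probe. The plan was to describe each heat-shock gene first by its brightest probe, and HSPA1A and BAG3 are not given in that order. Of the cell type lists only the leading epithelial marker and the stromal markers whose sign turned are named, the stromal ones after their values were seen. A planned search for heat-shock elements in promoters was not run, since promoter sequences were not used here.

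Alternatives were normexp background correction (offset 50), quantile normalization, median centring, the deposited log2 table, other filters, slide (consensus correlation 0.447) and scan day (0.315) as random blocks, replicate number as a block, a trended robust variance, each cow left out, the mean of the probes of a gene, and, added after seeing the data, removal of GC and brightness trends by natural splines of 4 and 5 degrees of freedom. Cows with the same replicate number deviated together with r from -0.21 to 0.22, so numbers do not pair cows. On simulated data over 31641 probes the fit recovered 49% of 100 probes set to change 2-fold and 89% of 100 set to 4-fold. Of its 149 calls 11 were false. The simulation held no slide or day effects. Only those probes were set to change, whereas 22.2% of all tested probes passed in the data. Its rates therefore do not describe the fit of the data.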

Additional observations from a re-analysis of the deposited data

Results flagged for a closer look

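Within the groups, 2 of 70 sets of values held a cow far from the rest, where chance gives about 1 in 20. Both are the overlapping HSPA1A probes in fertile cow 6. At base 870 it read -3.38, with the other fertile cows between -2.40 and -1.84, and at base 876 it read -4.10, with the others between -3.20 and -2.66. The probes share 29 bases, so these are not separate observations of HSPA1A.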

How the results depend on the processing

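Alternatives that moved a count by over 1.5 times were as follows. Of 7067 probes passing, normexp correction gave 17126, no filter on dim probes 12179, slide as a random block 3672 and scan day 977, and leaving out each cow 4527 (without subfertile cow 2) to 7298. Of 11 heat-shock probes, slide gave 7, scan day 3 and the removal of GC and brightness trends 6, and leaving out each cow gave 8 to 11. Of 26 chaperone list genes, slide gave 14, scan day 1, the replicate block 11 and the trend removal 16, and leaving out each cow gave 15 to 24, with 15 without subfertile cow 2 and 16 without fertile cow 1, fertile cow 3 or subfertile cow 5. The replicate block gave 4762 of all probes and 8 heat-shock probes. Numbers do not pair these cows, and only subfertile cow 2 deviated most like the fertile cow of its own number. Of the probes that passed, 66.7% were higher here, 50.9% under quantile normalization, 48.5% under median centring and 87.4% with normexp. In the same order, the median difference over all probes was 0.07, -0.01, -0.02 and 0.33. The median likeness of 0.20 was 0.14 within fertile cows and 0.19 under quantile normalization.

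Of the heat-shock genes, signs turned only at probes without a call. HSP90AB1, called at 0.72, was at -0.09 under quantile normalization. HSPA8 at its brightest probe gave -0.28 under quantile normalization, -0.051 under median centring, -0.21 with trends removed and -0.00326 to 0.091 with a cow left out. HSPD1 gave -0.033 with normexp, -0.12 under quantile normalization, -0.037 under median centring, -0.018 with the replicate block, -0.19 as the mean of its probes and -0.023 to 0.17 with a cow left out. HSPH1 gave -0.00082 with trends removed, HSPE1 -0.042 under quantile normalization, BAG3 0.33 and DNAJB1 0.033 as the mean of their probes. The causes were not tested. With the replicate block, whose estimate leaves out fertile cow 6 because no subfertile cow has its number, the brightest HSPB8 probe passed at 0.57 (limma, adjusted p = 0.0266), the HSPB8 probe at base 990 at 1.09 (adjusted p = 0.0121) and the brightest BAG3 probe at -0.77 (adjusted p = 0.0402). Without fertile cow 6 and without the block, the HSPB8 value was also 0.57 (adjusted p = 0.311).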
